A study of Mus musculus with 24 samples.

Results

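The histone deacetylase genes described here are Hdac1, Hdac2, Hdac3, Hdac4, Hdac5, Hdac6, Hdac7, Hdac8, Hdac9 and Hdac11, taken by gene name from the deposited comparison tables. These 10 genes, among 16355 genes with a symbol in those tables, hold 11 entries, because Hdac4 is listed under 2 identifiers. RNA came from the CA1 field, dissected from the hippocampus of mice of the C57BL/6J strain, 3 to 5 months old. Control mice carried the floxed Kat2a allele (Kat2a fl/fl) with no Cre, and conditional knockout (cKO) mice carried the same floxed allele together with CamKII_alpha-cre, a Cre driven by a promoter active in the excitatory neurons of the forebrain. The product of Kat2a is a lysine acetyltransferase, an enzyme of the opposite activity to the deacetylases. Mice of each genotype were left naive or were exposed to novelty for 15 min, which gave 6 naive and 5 novelty libraries of controls and 6 naive and 7 novelty libraries of cKO mice. Since no label ties each library to its own animal, the p-values reflect the spread among libraries, part of which may be technical.

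Histone deacetylases remove acetyl groups from lysines of histones and other proteins, which closes chromatin and lowers transcription where corepressor complexes bring them to DNA. Class I enzymes (Hdac1, Hdac2, Hdac3 and Hdac8) are mostly nuclear and, apart from Hdac8, work inside such complexes. Class IIa enzymes (Hdac4, Hdac5, Hdac7 and Hdac9) have little catalytic activity of their own, repress MEF2 transcription factors, and leave the nucleus when neuronal activity leads kinases to phosphorylate them and 14-3-3 proteins to bind them. Hdac6 (class IIb) acts on tubulin in the cytoplasm, and Hdac11 is the sole class IV enzyme. In the hippocampus, Hdac2 and Hdac3 are known as restraints on memory formation.

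The promoters of Hdac4, Hdac5 and Hdac9 are shown because these class IIa genes differ in what the data show below: Hdac4 was higher in cKO libraries, Hdac5 had a genotype difference near 0 and Hdac9 had a negative one that did not pass. Each line holds 250 bases before to 50 bases after a RefSeq start site (GRCm38.p6, minus strand), 5′ to 3′, with motif matches in capitals. Motifs were searched on both strands: the GC box GGGCGG, the CCAAT box CCAAT, the cAMP response element TGACGTCA, its core TGACG, the TATA box TATAAA and the AP-1 site TGANTCA. The core lies within the full element.
Hdac4, chr1:92180292-92180591: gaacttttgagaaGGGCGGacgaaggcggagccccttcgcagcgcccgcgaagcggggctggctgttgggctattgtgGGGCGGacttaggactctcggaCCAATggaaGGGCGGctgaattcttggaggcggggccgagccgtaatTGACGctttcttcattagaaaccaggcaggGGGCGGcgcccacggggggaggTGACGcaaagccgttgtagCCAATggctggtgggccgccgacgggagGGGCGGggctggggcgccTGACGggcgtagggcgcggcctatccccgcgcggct
Hdac5, chr11:102230123-102230422: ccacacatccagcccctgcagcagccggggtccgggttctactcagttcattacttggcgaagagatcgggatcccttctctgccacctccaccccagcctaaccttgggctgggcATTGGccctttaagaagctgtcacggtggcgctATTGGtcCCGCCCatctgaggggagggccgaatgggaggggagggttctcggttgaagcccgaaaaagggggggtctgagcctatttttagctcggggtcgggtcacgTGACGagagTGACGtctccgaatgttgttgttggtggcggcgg
Hdac9, chr12:34528840-34529139: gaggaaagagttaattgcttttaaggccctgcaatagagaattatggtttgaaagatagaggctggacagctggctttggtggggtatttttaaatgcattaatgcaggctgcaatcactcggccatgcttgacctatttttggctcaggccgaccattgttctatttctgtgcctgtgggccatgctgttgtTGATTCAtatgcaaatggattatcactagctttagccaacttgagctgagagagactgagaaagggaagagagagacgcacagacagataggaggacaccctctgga
The Hdac4 window held 5 GC boxes, 2 CCAAT boxes and 3 TGACG cores at a GC content of 68.0%. The Hdac5 window held 1 GC box, 2 CCAAT boxes and 2 cores at 60.7% GC. The printed Hdac9 window, at the 5′ end of the deposited entry, held 1 AP-1 site and no other motif of the set, at 45.3% GC. RefSeq lists a further Hdac9 start site 388206 bases upstream, outside the deposited entry, whose window (chr12:34917046-34917345) held 1 TATA box, no AP-1 site and no other motif of the set, at 44.0% GC. Over 32851 windows of this length the GC box was found in 35.7%, the CCAAT box in 37.4%, the core in 20.8%, the AP-1 site in 7.81%, the TATA box in 13.6% and the full cAMP response element in 1.79%, at a median GC content of 52.7%. The Hdac4 start site lies 31948 bases beyond the 5′ end of the deposited Hdac4 entry. Among windows not printed, that of Hdac6 also held 5 GC boxes and 2 CCAAT boxes, while its genotype difference was small, negative and did not pass. Hdac7, with the largest genotype difference, which did not pass either, had windows with at most 1 GC box. Whether motif content goes with the levels was not tested. RefSeq windows were found for 8 of the 10 genes, 12 windows in all.

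Libraries held 10.7 to 35.8 Mreads assigned to genes (1 Mread, 1e6 reads), with a median of 19.0 Mreads. Levels are given as CPM, read counts divided by the TMM-scaled library size of each of 24 libraries, in the usual per-million unit. The TMM factors ran from 0.972 to 0.997 in control and from 0.997 to 1.03 in cKO libraries. Differences of a few percent between genotypes therefore rest on this scaling. Kat2a, the targeted gene, was at 56.0 to 70.3 CPM in the 11 control libraries and at 31.2 to 39.3 CPM in the 13 cKO libraries, and the 2 genotypes did not overlap. All 9 markers of CA1 pyramidal neurons were present. Summed dentate granule markers ran from 176 to 333 CPM in control and from 143 to 277 CPM in cKO libraries. Summed subiculum markers ran from 144 to 226 CPM and from 106 to 226 CPM. A part of this spread in the member values was not tested. The shallowest library was control naive replicate 2, and control naive replicate 4 held a summed level of 5 choroid plexus markers of 111 CPM against at most 43.2 CPM elsewhere. Most of this sum was Ttr, at 86.9 CPM, while Folr1, Clic6 and Aqp1 were at most 1.75 CPM in any library. In bulk tissue, fewer cells of a type and less RNA per cell cannot be told apart.

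All 11 entries passed the filter on low counts in each comparison, and their reads per library ran from 139 for Hdac8 to 7970 for Hdac11. Across genes, levels were compared as CPM per kilobase of exon, averaged over all 24 libraries. Hdac11 stood first at 58.4 ± 3.74 CPM per kilobase (SD, n = 24), above every library of every other member. Hdac3 at 22.8 ± 1.07, Hdac2 at 22.4 ± 1.27 and Hdac5 at 17.2 ± 1.80 CPM per kilobase came next, and their neighbouring ranges overlapped. Hdac6 followed at 8.48 ± 0.413 CPM per kilobase and Hdac9 at 6.81 ± 0.604, with ranges that did not overlap each other. The deposited Hdac9 entry covers 34371503 to 34528889 of chromosome 12, whereas GENCODE M21 places the gene at 34047580 to 34917095. The level and rank of Hdac9 are therefore those of a part of the gene. Hdac1 measured 4.64 ± 0.471 CPM per kilobase, and its range met that of Hdac9. The lowest levels were those of Hdac4 (both entries together, 3.22 ± 0.267), Hdac7 (3.11 ± 0.454) and Hdac8 (2.90 ± 0.157 CPM per kilobase), which did not differ beyond their spread. Hdac11 was 20.1 times as abundant per kilobase of exon as Hdac8, a ratio that depends on the length used. With the longest transcript as the length, a choice made after seeing the data, the order changed below Hdac11, which stayed first at 84.8 CPM per kilobase. Hdac2 moved to rank 2, Hdac5 to rank 3 and Hdac3 to rank 4. Hdac9, at 11.2 CPM per kilobase, then stood above Hdac6 at 9.79, so the order of these 2 genes depends on the length used. Hdac8 moved from rank 10 to rank 8 at 6.19 CPM per kilobase, and Hdac7 became the lowest at 4.05.

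**Figure D1:**
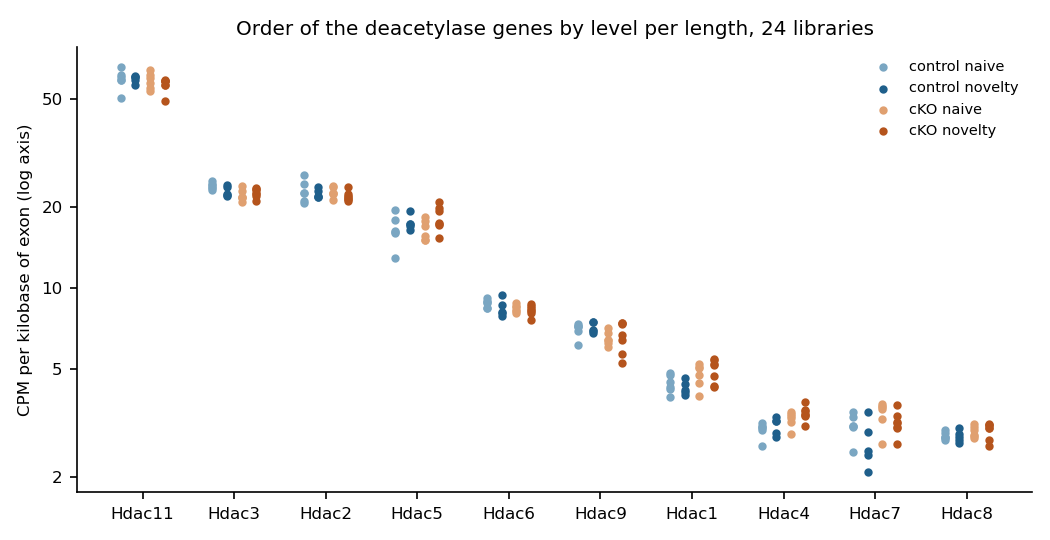
Level of each deacetylase gene in CPM per kilobase of exon (log axis), 1 point per library, coloured by group and ordered by the mean over 24 libraries. Hdac11 lies above all other genes in every library, and Hdac4, Hdac7 and Hdac8 share the lowest range. Hdac1 is drawn without the reads assigned to its near-identical pseudogene Gm10093, so its place is uncertain.

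The members also differed in how tightly libraries of 1 group agreed. The pooled within-group coefficient of variation of CPM was 3.90% for Hdac3, 4.63% for Hdac6 and 5.32% for Hdac8. It was 10.1% for Hdac5 and 12.9% for Hdac7, and the median over all genes tested was 9.99%. A difference of a given size was therefore harder to detect in Hdac7 than in Hdac3.

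**Figure D2:**
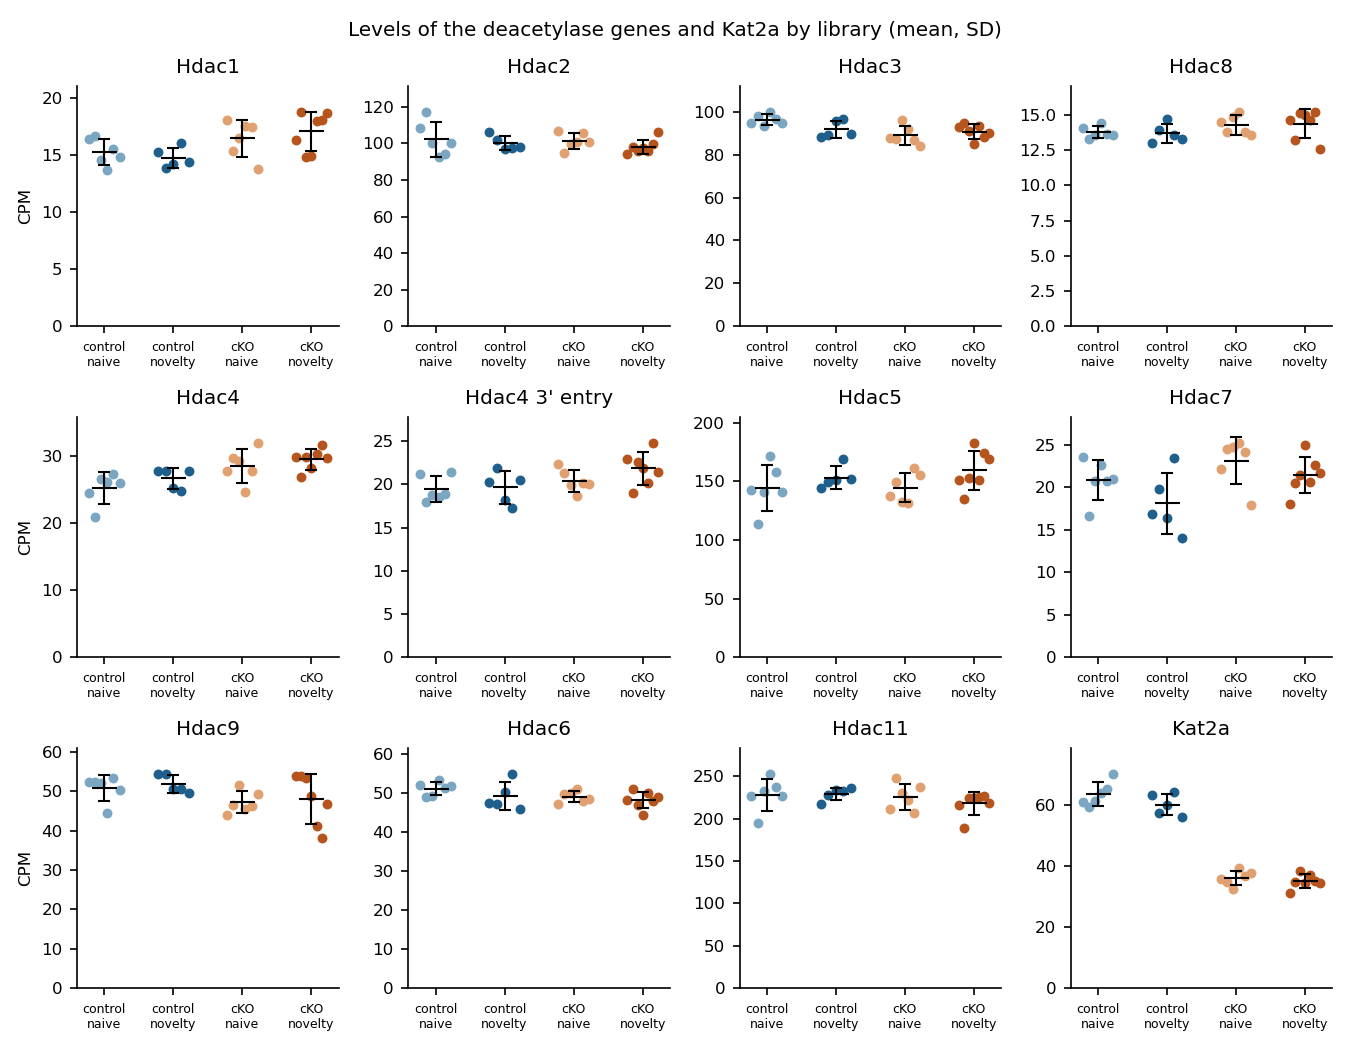
Level in CPM of the 11 deacetylase entries and of Kat2a, 1 point per library in 4 groups, with mean and SD; each axis starts at 0. Kat2a separates the genotypes completely, whereas the groups overlap for all deacetylase entries.

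The genotype effect averaged over both exposures, fitted on all 24 libraries, asked whether levels differ between cKO and control mice. Hdac4 was higher in cKO libraries by 11.6% and Hdac1 by 12%, and no member passed as lower. Thus 2 of 11 entries passed edgeR's quasi-likelihood test at an adjusted p below 0.05, beside 12% of 16744 genes tested. Both were higher, beside 5.72% of genes called higher and 6.32% called lower. At an unadjusted p below 0.05 there were 6 entries, beside 26.6% of all genes. DESeq2 and limma-voom each called 2 entries as well. The median log2 fold change was 0.03 over the 11 entries and 0.01 over all genes tested, with 6 positive and 5 negative entries. The gene Hdac4 counts as 2 entries, both in the 6 with an unadjusted p below 0.05 and in the 6 positive ones.

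Hdac4 (ENSMUSG00000026313, GRCm38 chromosome 1, 91932757 to 92148393, minus strand), the class IIa gene best known for a role in neuronal survival and memory, was the member with the smallest p. Its level ran from 20.9 through a median of 26.1 to 27.3 CPM in control naive libraries. In control novelty libraries it was 27.8, 27.8, 25.3, 24.7 and 27.7 CPM. In cKO naive libraries it ran from 24.6 through 28.5 to 32.0 CPM, and in cKO novelty libraries from 26.9 through 29.8 to 31.7 CPM. Of the 13 cKO libraries, 12 lay above the control median of 26.2 CPM and 9 above the highest control library, while the genotype ranges overlapped. The log2 fold change was 0.16 ± 0.04 (SE), with an adjusted p of 0.0191 in edgeR. It passed in all 24 fits that left out 1 library, with adjusted p between 0.00608 and 0.0413.

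The second Hdac4 entry (ENSMUSG00000073617, chromosome 1, 91928785 to 91931176) lies just 3′ of the first and belongs to the same gene in the GENCODE M21 annotation. It ran from 17.3 through a median of 18.8 to 21.9 CPM in the 11 control libraries and from 18.6 through 21.3 to 24.8 CPM in the 13 cKO libraries. Again 12 cKO libraries lay above the control median. Its log2 fold change was 0.11 ± 0.05 (SE), with an adjusted p of 0.141 in edgeR, in the direction of the first entry but not past the threshold. With the reads of both entries summed, a choice made after seeing the data, the log2 fold change was 0.14 (edgeR adjusted p = 0.0208).

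Hdac1 (ENSMUSG00000028800, chromosome 4, 129516104 to 129542713, minus strand), a catalytic subunit of the Sin3, NuRD and CoREST corepressor complexes, was the other member that passed. It ran from 13.7 through a median of 15.2 to 16.6 CPM in control naive libraries and was 15.2, 13.9, 14.2, 16.04 and 14.4 CPM in control novelty libraries. It ran from 13.8 through 17.0 to 18.1 CPM in cKO naive and from 14.8 through 17.9 to 18.8 CPM in cKO novelty libraries. Of 13 cKO libraries, 12 exceeded the control median of 14.8 CPM and 7 exceeded the highest control library. The log2 fold change was 0.16 ± 0.05 (SE), with an adjusted p of 0.0414 in edgeR. This call held in only 9 of 24 fits that left out 1 library, over which the adjusted p ran from 0.0145 to 0.0860 and the log2 fold change from 0.15 to 0.19.

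Hdac1 shares sequence with the processed pseudogene Gm10093, which was examined after the values were seen. A stretch of 1444 bases, 70.9% of the Hdac1 transcript of 2038 bases, matches Gm10093 at 99.4% identity. The processed pseudogenes Gm4864 and AC125456.1 match 72.1% and 71.1% of this transcript, at 94.55% and 96.28% identity. Neither has an entry among the counted genes. Of the reads counted for Hdac1 or Gm10093, 50.7 to 56.6% per library were assigned to Gm10093 (median 53.7%), more than to Hdac1 in 24 of 24 libraries. The level of Hdac1 is therefore uncertain, since reads of the gene and of its copies may not be told apart. Gm10093 was higher in cKO libraries by a log2 fold change of 0.15 ± 0.04 (SE), with an adjusted p of 0.0129 in edgeR, and both features summed gave 0.16 (edgeR adjusted p = 0.00973).

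Hdac7 (ENSMUSG00000022475, chromosome 15, 97792664 to 97844502), a class IIa gene known from blood vessels and thymocytes, had the largest genotype difference of the 11 entries but did not pass. It ran from 16.6 through a median of 20.8 to 23.5 CPM in control naive libraries and was 16.8, 19.8, 16.3, 23.4 and 14.1 CPM in control novelty libraries. It ran from 17.9 through 24.3 to 25.2 CPM in cKO naive and from 17.95 through 21.5 to 24.9 CPM in cKO novelty libraries, and 9 of 13 cKO libraries exceeded the control median of 20.7 CPM. The log2 fold change was 0.19 ± 0.07 (SE), with an adjusted p of 0.0868 in edgeR. It was 0.24 (edgeR adjusted p = 0.0186) without control novelty replicate 4, the highest library of its group, and 0.22 (edgeR adjusted p = 0.0342) without cKO naive replicate 6, the lowest of its group.

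Hdac3 (ENSMUSG00000024454, chromosome 18, 37935844 to 37954988), the catalytic subunit of the NCoR and SMRT complexes, ran from 88.3 through 94.9 to 99.96 CPM in control and from 84.1 through 90.1 to 96.1 CPM in cKO libraries. Of 13 cKO libraries 12 lay below the control median, with a log2 fold change of -0.07 ± 0.03 (SE), with an adjusted p of 0.105 in edgeR. Hdac9 (ENSMUSG00000004698, chromosome 12, 34371503 to 34528889), a class IIa gene expressed in neurons and muscle, ran from 44.5 through 52.0 to 54.4 CPM in control and from 38.2 through 46.6 to 53.9 CPM in cKO libraries. Its log2 fold change was -0.11 ± 0.05 (SE), with an adjusted p of 0.152 in edgeR, with 10 of 13 cKO libraries below the control median. These Hdac9 values come from the deposited span, which is a part of the gene. Neither gene passed, and their genotype ranges overlapped.

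The other 5 members showed smaller differences, none past the threshold. Hdac8 (ENSMUSG00000067567, chromosome X, 102284639 to 102505359), which deacetylates cohesin, had a log2 fold change of 0.06 (95% interval -0.02 to 0.14), and its cKO median was 14.7 CPM against 13.6 CPM in controls. Hdac2 (ENSMUSG00000019777, chromosome 10, 36974544 to 37001889), the class I partner of Hdac1, had -0.02 (95% interval -0.09 to 0.05), with medians of 99.6 CPM in cKO and 100.2 CPM in control libraries. These 2 genes had 10 of 13 and 8 of 13 cKO libraries on the side of their fold change.

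Hdac6 (ENSMUSG00000031161, chromosome X, 7930120 to 7947889), the tubulin deacetylase, ran from 45.9 through a median of 50.3 to 54.9 CPM in control and from 44.3 through 48.3 to 51.1 CPM in cKO libraries. Its log2 fold change was -0.04 (95% interval -0.11 to 0.02), and 11 of 13 cKO libraries lay below the control median. Hdac11 (ENSMUSG00000034245, chromosome 6, 91156665 to 91174692), an eraser of fatty acyl groups from lysine, ran from 195 through 232 to 253 CPM in control and from 189 through 224 to 248 CPM in cKO libraries. Its log2 fold change was -0.04 (95% interval -0.12 to 0.03), again with 11 of 13 cKO libraries below the control median. Both ranges overlapped, and neither gene passed. Hdac5 (ENSMUSG00000008855, chromosome 11, 102194432 to 102230166), whose export from the nucleus follows neuronal activity, ran from 113 through 149.6 to 171 CPM in control and from 132 through 151 to 183 CPM in cKO libraries, with a log2 fold change of 0.03 (95% interval -0.09 to 0.15). Hdac5 lies 1.48 Mb from Kat2a on chromosome 11. Hdac10, the class IIb gene outside the member list, was at 8.99 to 16.6 CPM over all libraries and had 0.09 (edgeR adjusted p = 0.515).

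**Figure D3:**
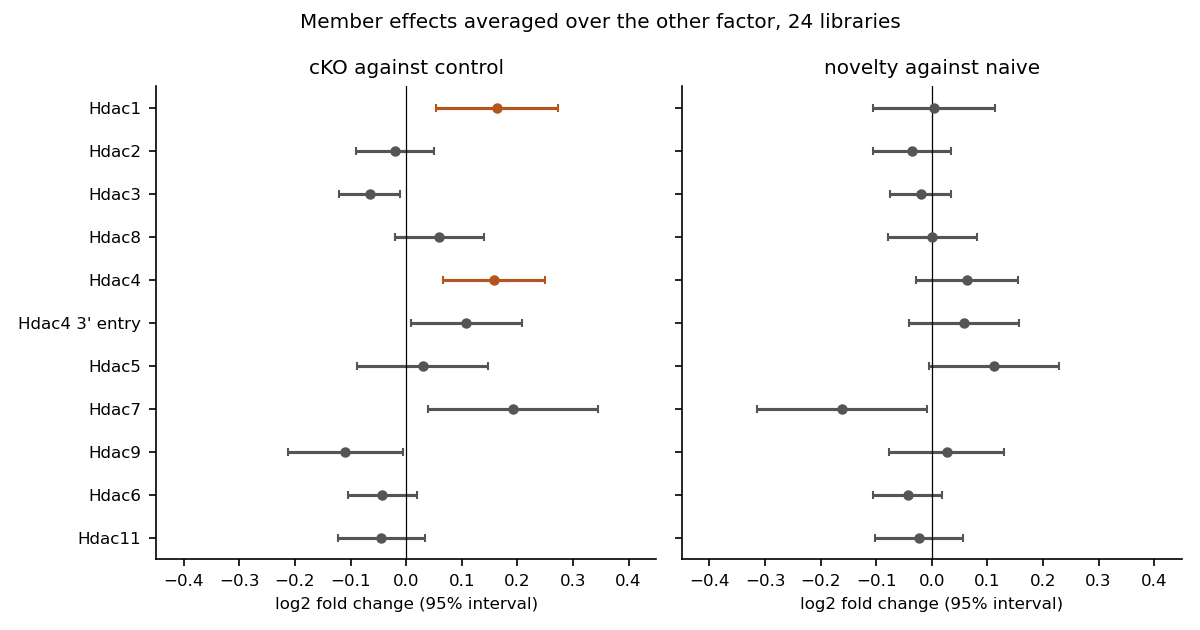
Log2 fold change of each entry with its 95% interval for cKO against control (left) and novelty against naive (right), each averaged over the other factor in 24 libraries. Orange marks an edgeR adjusted p below 0.05, which Hdac4 and Hdac1 reached for genotype and no entry reached for novelty.

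Taken exposure by exposure, no entry passed for genotype. In naive mice 0 of 11 entries passed in edgeR, DESeq2 or limma-voom, beside 0.801% of genes called in edgeR, and 2 entries had an unadjusted p below 0.05, beside 13.6% of genes. These were Hdac3 (log2 fold change -0.11, edgeR adjusted p = 0.211) and Hdac4 (0.17, edgeR adjusted p = 0.309). After novelty 0 of 11 passed in the same 3 tools, beside 4.53% of genes in edgeR, and 3 entries had an unadjusted p below 0.05, beside 20.7% of genes. These were Hdac1 (0.22, edgeR adjusted p = 0.108), Hdac4 (0.15, edgeR adjusted p = 0.118) and Hdac7 (0.25, edgeR adjusted p = 0.201). Hdac7 passed there without control novelty replicate 4, at 0.35 (edgeR adjusted p = 0.0403). That library was the highest of its group, so its removal widened the difference. In neither comparison did the groups of any entry fail to overlap, beside 1.91% and 3.14% of genes. In the authors' deposited table for naive mice 0 of 11 entries had an adjusted p below 0.05, and the same held in the authors' deposited table for novelty-exposed mice, beside 3.18% and 8.17% of listed genes.

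No member passed the test for the 15 min novelty exposure. In controls 0 of 11 entries passed in edgeR, DESeq2 or limma-voom, beside 1.22% of genes in edgeR, and 0 entries had an unadjusted p below 0.05, beside 11% of genes. In cKO mice 0 of 11 passed in the same 3 tools, beside 2.41% of genes in edgeR, again with 0 entries at an unadjusted p below 0.05, beside 13.9% of genes. The groups overlapped for every entry, beside 2.4% and 1.98% of genes whose groups did not. In the authors' deposited table for controls, and likewise in the authors' deposited table for cKO mice, 0 of 11 entries had an adjusted p below 0.05, beside 2.79% and 4.41% of listed genes.

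Averaged over genotypes, 0 of 11 entries passed for novelty in edgeR, DESeq2 or limma-voom, beside 6.55% of genes in edgeR, and 1 had an unadjusted p below 0.05, beside 17.6% of genes. That entry was Hdac7, which ran from 16.6 through 22.4 to 25.2 CPM in 12 naive and from 14.1 through 20.6 to 24.9 CPM in 12 novelty libraries. Its log2 fold change was -0.16 (95% interval -0.31 to -0.01, edgeR adjusted p = 0.239). Hdac5 ran from 113 through 142 to 171 CPM in naive and from 135 through 152 to 183 CPM in novelty libraries, and 11 of 12 novelty libraries exceeded the naive median. Its log2 fold change was 0.11 (95% interval -0.01 to 0.23, edgeR adjusted p = 0.309). For the other 9 entries the 95% intervals lay between -0.11 and 0.16.

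The interaction asked whether the novelty response depends on genotype. It passed for 0 of 11 entries in edgeR, DESeq2 or limma-voom, beside 0% of 16744 genes, and 0 entries and 4.11% of genes had an unadjusted p below 0.05. Differences in response ran from -0.06 for Hdac11 to 0.11 for Hdac7 on the log2 scale. The Hdac7 interval, -0.20 to 0.41, shows how wide a difference these libraries leave undetected.

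**Figure D4:**
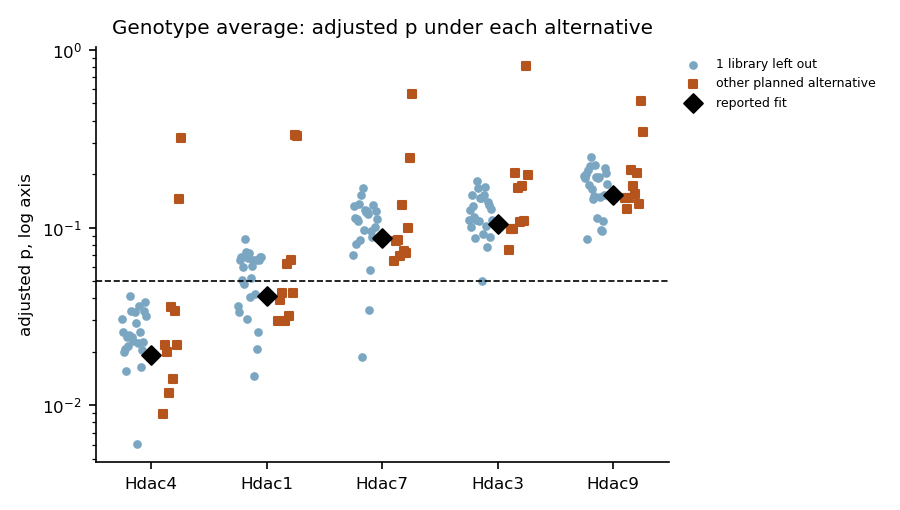
Adjusted p (log axis) of the genotype average for 5 members: the reported fit (diamond), fits without 1 library (circles) and fits with other settings (squares), with a dashed line at 0.05. All circles of Hdac4 lie below the line, while those of Hdac1 fall on both sides.

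The proteins that work with the deacetylases were taken from 11 lists, of which 104 genes other than Kat2a were tested. For the genotype average 17 of 104 passed, or 16.3%, beside 12% of all genes. Of these 10 were higher and 7 lower, beside 5.72% and 6.32% of all genes, and this split depended on scaling and on 1 library: it was 13 to 4 under upper-quartile scaling and 6 to 7 without control naive replicate 4. Their median log2 fold change was -0.00, against 0.01 over all genes. Among scaffolds that carry Hdac1 and Hdac2, 3 of 9 CoREST genes were higher: Rcor2, a core subunit, rose from 9.22 ± 0.823 CPM (SD, n = 6) in control naive to 12.7 ± 1.45 (n = 6) in cKO naive libraries (averaged log2 fold change 0.51, edgeR adjusted p = 4.84e-05). Zfp217 rose by 0.21 and Rcor1 by 0.12, the latter not past the threshold under RLE scaling (edgeR adjusted p = 0.0517). Of 14 Sin3 genes 2 were higher, Arid4a by 0.14 and the scaffold gene Sin3a by 0.10, and of 13 NuRD genes 1 was, Gatad2a by 0.15. None of 5 NCoR and SMRT genes and none of 4 MiDAC genes passed. In naive mice alone 1 of 104 passed, Rcor2 (0.46), which is 0.962% beside 0.801% of all genes. After novelty 4 did, 3.85% beside 4.53% of all genes, so both shares were near the background. These were Rcor2 (0.57), Cabin1 (0.18), Camk2a (-0.28) and Ywhah (-0.17).

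The counts by list that follow stand beside 5.72% of all genes called higher and 6.32% called lower, and no list was tested as a set. Among partners of the class IIa members, 2 of 6 genes of the MEF2 list were higher, Cabin1 by 0.17 and Rfxank by 0.16. Of 18 kinases that can phosphorylate class IIa enzymes or signal to them, 2 were lower, Camk2a by a log2 fold change of -0.24 and Camk1g of -0.17; Camk2a is also among the CA1 pyramidal markers. Of 7 genes for 14-3-3 proteins, which hold phosphorylated class IIa enzymes in the cytoplasm, 3 were lower, Ywhah (-0.19), Ywhaq (-0.13) and Ywhag (-0.10). All 7 had a negative value, also under RLE and upper-quartile scaling, and the median over all genes in the reported fit was 0.01. Ywhag did not pass under upper-quartile scaling (edgeR adjusted p = 0.0582). In the list around Hdac6, the chaperone genes Hsp90aa1 (-0.13) and Hsp90ab1 (-0.08), whose protein Hdac6 deacetylates, were lower, 2 of 9, but neither passed under upper-quartile scaling (edgeR adjusted p = 0.0650 and 0.0640). Of 7 sirtuins, the unrelated NAD-dependent deacylases, Sirt5 was higher by 0.15. Of 12 other lysine acetyltransferases Kat6a was higher by 0.08, at an edgeR adjusted p of 0.0499, which was 0.0531 under RLE scaling.

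The count of 17 was 13 without control naive replicate 4 and 15 without the shallowest library, both chosen after seeing the data, and 11 and 14 of the 17 were among them. Rcor1, Zfp217, Kat6a, Rfxank, Sirt5 and Ywhag did not pass without control naive replicate 4, and Kat6a, Rfxank and Hsp90aa1 did not pass without the shallowest library. Markers of other cells moved with genotype as well. Over all genes 6.32% were called lower. Of 7 oligodendrocyte markers 5 were lower in cKO libraries, where their summed level was 3095 to 5969 CPM against 4503 to 5478 CPM in controls. Of 9 CA1 pyramidal markers 2 were lower, at summed levels of 4806 to 6262 CPM against 5816 to 7354 CPM. Camk2a, at 2915 to 5047 CPM over all libraries, makes up most of that sum. Of 8 interneuron markers 3 were lower, at 881 to 1080 CPM against 975 to 1143 CPM. Of 4 oligodendrocyte precursor markers 2 were lower, at summed levels of 142 to 172 CPM against 163 to 179 CPM. Of 6 markers of endothelium and pericytes 1 was lower, at 174 to 253 CPM against 229 to 277 CPM. Of 6 dentate granule markers 2 were lower, at 143 to 277 CPM against 176 to 333 CPM, and of 7 CA2 and CA3 markers tested 1 was, at 197 to 276 CPM against 193 to 264 CPM. None of 4 subiculum markers passed, with a median sum of 162 CPM against 208 CPM in controls. None of 7 astrocyte, 6 microglia and 4 choroid plexus markers tested passed. The part of such shifts in the values of the deacetylase genes and their partners was not tested.

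For novelty, 7 of 104 partner genes passed on average, 6.73%, near the 6.55% of all genes. All 7 were higher, beside 4.43% of all genes called higher and 2.13% called lower. Sik1, a kinase that phosphorylates class IIa deacetylases, rose from 5.79 ± 0.518 to 12.1 ± 1.37 CPM in controls (n = 6 and 5) and from 6.14 ± 0.721 to 15.2 ± 4.07 CPM in cKO mice (n = 6 and 7), an averaged log2 fold change of 1.18 (edgeR adjusted p = 1.5e-08). Sik2 rose by 0.43, Camk1g by 0.26, the Sin3 subunit gene Sap30 by 0.44, Elmsan1, the MiDAC scaffold gene, by 0.23, the acetyltransferase gene Ep300 by 0.12 and Arid4b by 0.11. Arid4b did not pass under upper-quartile scaling (edgeR adjusted p = 0.0935) or without control naive replicate 4 (0.0640). Within controls 3 of 104 passed and within cKO mice 3, or 2.88% in each, beside 1.22% and 2.41% of all genes, with Sik1 and Sik2 in both. None of the 104 passed for the interaction in edgeR.

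**Figure D5:**
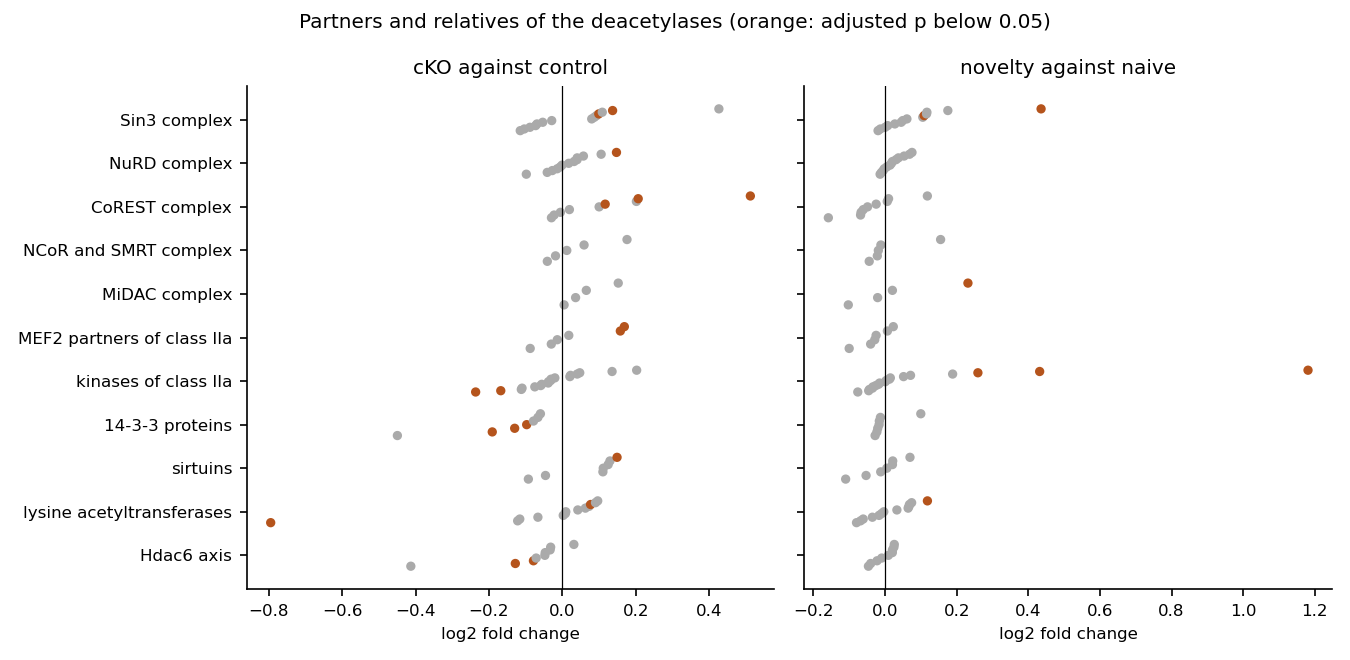
Log2 fold change of each partner gene by list, for cKO against control (left) and novelty against naive (right), 1 point per gene, orange where the edgeR adjusted p was below 0.05. The far left point among the acetyltransferases is Kat2a itself, and the far right point for novelty is Sik1 at 1.18.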

How the data were processed

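Poly(A) RNA of dissected CA1 was sequenced from TruSeq libraries, per the labels' protocols, which name kits for paired-end and single-end runs without assigning them to libraries and a preparation that does not mark strand. The authors deposited raw read counts per Ensembl gene for 24 libraries, with 38355 genes and 5 summary entries left out here. STAR 2.3.0, HTSeq and DESeq2 are named in the submitters' processing notes without roles, and the annotation release is not given in the sources used here. In 4 deposited comparison tables the authors give a mean normalised count (a signal), a log2 fold change and a p-value with its adjusted value, per the file headers.

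Counts were tested with edgeR 4.0.16 in R 4.3.3 (TMM, filterByExpr at a minimum count of 10, robust quasi-likelihood F test, Benjamini-Hochberg over all genes). Pairwise comparisons used their own groups, and averages and the interaction used all 24 libraries. DESeq2 1.42.0 and limma-voom 3.58.1 were alternatives, with other scalings, filters, a library-number block and leaving out each library. Fits were tested on simulated data. Intervals are 95%. Lengths are GENCODE M21 exon bases within the deposited span, and copies were searched with BLAST 2.17.0 from 200 aligned bases at 90% identity. Named genes are all members, Kat2a, Hdac10 and, per partner list, up to 4 genes that passed with the smallest p; Gm10093 was added after its values were seen. The members and lists were chosen with earlier results of these data known.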

Additional observations from a re-analysis of the deposited data

Results flagged for a closer look

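In each group of each deacetylase entry, the lowest and the highest library were compared with the nearest other library, as a share of the group's range. Of 44 such groups 2 had a library standing apart, where chance flags about 1 in 20 groups. Hdac9 in control naive replicate 4 was at 44.5 CPM, against 50.3 to 53.3 CPM in the other libraries of its group. Hdac11 in cKO novelty replicate 2 was at 189 CPM, against 217 to 227 CPM in the others. Control naive replicate 4 is also the library with the highest summed level of choroid plexus markers, at 111 CPM, and a part of this in the Hdac9 value was not tested.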

How the results depend on the processing

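Hdac4 kept its genotype call in every fit on all libraries and lost it when only libraries numbered 1 to 3 (log2 fold change 0.18, edgeR adjusted p = 0.145) or 4 and above (0.14, edgeR adjusted p = 0.318) were used, with fewer samples in each fit. Hdac1 gave 0.14 and 0.17 there (edgeR adjusted p = 0.330 and 0.328), 0.16 without a low-count filter (edgeR adjusted p = 0.0624) and 0.16 with the replicate block (edgeR adjusted p = 0.0658). The entries called for the genotype average, 2 as reported, were 1 without a low-count filter, 1 with the replicate block, 0 in libraries 1 to 3 and 0 in libraries 4 and above, and 1 to 3 when 1 library was left out; for genotype after novelty they were 0 to 1. No result changed direction while past the threshold.

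The deviations of same-numbered libraries correlated above 0.1 in 0 of 5, 2 of 6, 1 of 6 and 1 of 5 pairs, by comparison as listed next. The highest r was 0.08, 0.27, 0.33 and 0.32, and the median 0.01, 0.05, -0.06 and 0.02. So few pairs cannot exclude that the numbers pair libraries. With the replicate block, genes called fell from 196 to 97 for novelty in controls, 393 to 207 for novelty in cKO, 131 to 70 for genotype in naive and 733 to 398 for genotype after novelty mice. DESeq2 called 373, 639, 457 and 1155, and the fit on all 24 libraries 305 for novelty in controls and 322 for genotype in naive mice. Libraries 1 to 3 alone gave 25, 15, 3 and 17, and 206 and 402 for the novelty and genotype averages (1097 and 2017 as reported). Libraries 4 and above gave 70 for novelty in cKO, 5 and 121 for the genotype comparisons, and 369 and 405 for the averages. Leaving out 1 library gave 113 to 255, 238 to 452, 40 to 166, 324 to 1025, 850 to 1262 and 1480 to 2210 genes in the same order, and 0 to 0 for the interaction. Upper-quartile scaling moved the share called higher from 47.5 to 58.5% for the genotype average, from 67.5 to 53.9% for the novelty average and from 79.9 to 67.0% for novelty in cKO. Without strand, antisense reads over a member are counted with it.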
